A study of Homo sapiens with 6 samples.

Results

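The genes described here are 38 genes of mitosis and the G2/M transition, covering cyclins, mitotic kinases, checkpoint proteins, kinesins, kinetochore proteins and cytokinesis factors. They were taken by symbol through the GENCODE 29 annotation from the 25969 genes of a human RNA sequencing series, and all 38 were found. Of 20927 genes with a mean normalized value of at least 1 over the libraries, all 38 were among those tested. The rule that picked them uses symbols and roles and no measured value, although earlier results of these data were known when it was written. The series holds 6 libraries from cells labelled LNCaP, an established human prostate cancer line. In 3 of them cells carried a VIM-AS1 overexpression vector, VIM-AS1 being a noncoding transcript antisense to the vimentin gene, and the other 3 received the pcDNA3.1 vector, with a genotype labelled WT. The labels used here give no time after transfection. Nor do they say that replicates were grown as separate cultures, and the spread behind each p-value may thus be technical.

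Entry into mitosis is driven by CDK1 bound to cyclin A or cyclin B, with PLK1 and the Aurora kinases acting beside it. The spindle assembly checkpoint holds back the anaphase-promoting complex (APC/C), a ubiquitin ligase, until every kinetochore is attached to microtubules, after which CDC20 activates the complex and securin and the cyclins are degraded. Many of these genes share a late cell cycle expression programme, in which FOXM1, MYBL2 and the MuvB core act through a promoter element called CHR and NF-Y acts through CCAAT boxes. In a bulk sample a change in the number of cells in G2 or mitosis and a change in RNA per cell cannot be told apart.

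Promoters are shown because many of these genes were higher together. RefSeq promoters (GRCh38.p14) matched 31 of the 38 genes. Searched were the 250 bases before each start site, on both strands, for CCAAT and for the letters of the CHR element, TTTGAA. The CCAAT letters stood before 25 of the 31 genes (80.6%), against 37.0% of 27305 genes with a promoter. TTTGAA stood before 17 of them (54.8%), against 16.1% of all genes, and both stood before 15 (48.4%), against 5.79%. With TTCGAA counted too, and likewise TTTAAA, 23 of the 31 had a CHR-like match, against 26.5% of all genes. Between the 18 matched genes that rose in the fit described below and the other 13, the counts with CCAAT were 15 and 10. Those with TTTGAA were 10 and 7. The share among genes that rose was lower for the remaining counts. These were 12 and 11 for a CHR-like match, 8 and 7 for both CCAAT and TTTGAA, and 8 and 8 for 2 or more CCAAT. A match of letters is a description and not a binding site. Of the promoters with at most 30 exonic bases in the last 150 bases before the start, those of 5 genes are printed 5′ to 3′, with the matches to these letters on either strand in capitals. In MKI67 one TTTGAA match runs into a CCAAT match:
CDC20 (chr1:43358831-43358980, plus strand): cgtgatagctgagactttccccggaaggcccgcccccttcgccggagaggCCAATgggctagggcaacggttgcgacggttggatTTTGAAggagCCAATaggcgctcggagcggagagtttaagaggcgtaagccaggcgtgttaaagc
CDK1, the start farther upstream (chr10:60778181-60778330, plus strand): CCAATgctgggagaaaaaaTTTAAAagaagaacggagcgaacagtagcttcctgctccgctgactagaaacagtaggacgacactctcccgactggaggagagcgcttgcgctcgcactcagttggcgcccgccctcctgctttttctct
CENPF (chr1:214603045-214603194, plus strand): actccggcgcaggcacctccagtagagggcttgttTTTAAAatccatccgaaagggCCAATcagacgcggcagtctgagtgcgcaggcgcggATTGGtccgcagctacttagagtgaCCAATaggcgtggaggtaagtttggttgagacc
KIF11 (chr10:92592980-92593129, plus strand): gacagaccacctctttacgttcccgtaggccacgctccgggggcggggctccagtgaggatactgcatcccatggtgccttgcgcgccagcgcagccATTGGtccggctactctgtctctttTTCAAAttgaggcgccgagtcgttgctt
MKI67 (chr10:128126424-128126573, minus strand): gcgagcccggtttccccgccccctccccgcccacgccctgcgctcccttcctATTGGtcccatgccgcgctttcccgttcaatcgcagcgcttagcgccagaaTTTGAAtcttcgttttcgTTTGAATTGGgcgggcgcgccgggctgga
CDC20 and CDK1 were among the genes that rose, CENPF was the gene that fell, and KIF11 and MKI67 did not pass the test. These 5 were picked among genes with matches to print. The windows of AURKB, CDC25C and KIF2C were also short enough in exonic bases. AURKB had CCAAT without TTTGAA in the 250 bases searched. From its start farther upstream this match lay within the last 150 bases, so AURKB, which rose, could have been printed and was left out. KIF2C and those starts of CDC25C had neither.

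VIM-AS1 itself, which checks the labels, had 2061 to 2700 recovered reads in libraries with the overexpression vector and 1 to 9 in the controls. Libraries held 14762893 to 19889745 recovered reads. The luminal prostate marker KLK3 had 0 reads in 5 of 6 libraries and 2 in control replicate 1, and FOLH1 had 0 in 4 and at most 4. HOXB13 stood between 401.2 and 807.3 normalized reads, and the cells are called here by their label only. Summed over 5 of 7 luminal markers the level was 718.4 to 929.8 with VIM-AS1 and 532.4 to 857.6 in controls. HOXB13 carried most of this sum, and the luminal markers KLK2 and TMPRSS2 had no deposited values. Over 2 of 4 leukocyte markers the sum was 40.2 to 46.4 and 41.1 to 75.7, as PTPRC and CD3E had no deposited values. Summed levels of 6 fibroblast markers were 1780 to 2548 and 2875 to 3714, and those of 3 basal markers 4.90 to 17.9 and 24.9 to 40.3, with the overexpression group lower and no overlap in both. The sum of 3 endothelial markers was 64.5 to 108.7 and 33.2 to 64.8. Of the fibroblast markers, COL1A2 and LUM were at 0 in most libraries, while COL1A1 and PDGFRB carried most of the sum. Genes of the mitochondrial genome took 5.57% to 7.06% of reads with VIM-AS1 and 8.73% to 14.3% in controls. The part of these differences in the results below was not tested.

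Replicate 3 of each group differed from replicates 1 and 2, and among the mitosis genes this followed base composition. The longest annotated transcripts of the 38 genes ranged from 35.3% to 57.9% GC. Of the 20 genes under 45% GC, the third library lay above the mean of the first and second for 19 in the overexpression group and for 20 in the controls, with median differences of 1.03 and 0.93 log2 units. Of the 18 genes at or above 45%, it lay above for 6 and 5, with medians of -0.22 and -0.34. Over the 38 genes the Pearson r between GC content and this difference was -0.92 with VIM-AS1 and -0.90 in controls (Spearman rho -0.91 and -0.93), as a description over genes that share the same libraries. TTK, at 40.8% GC, was 1.35 and 1.76 log2 units higher in the third library of the 2 groups, and PLK1, at 57.1%, was at -0.65 and -0.56.

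**Figure D1:**
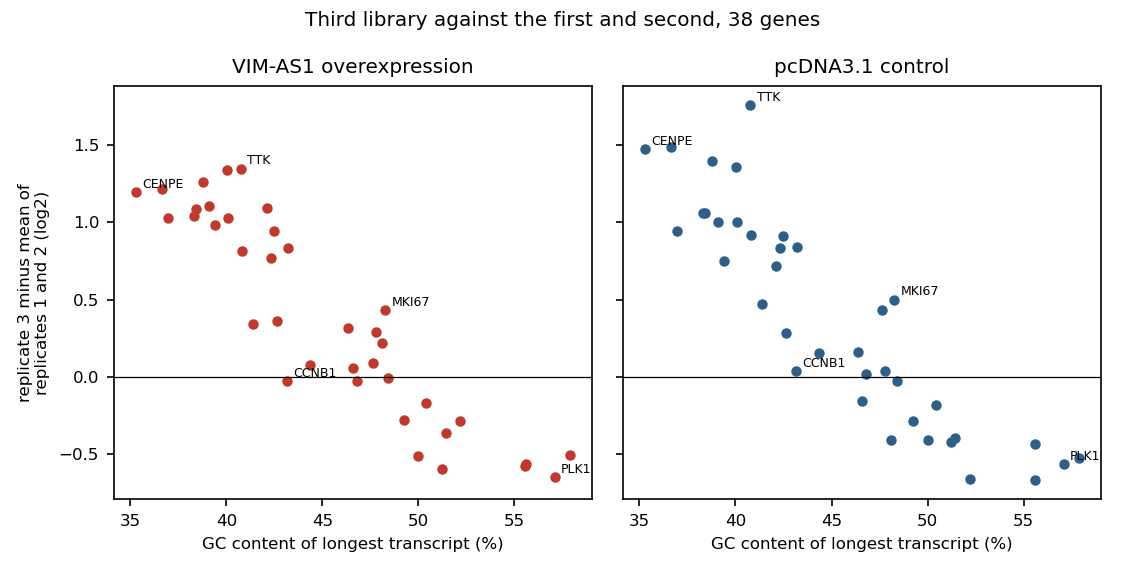
Each point is 1 of the 38 genes; the x axis gives the GC content (%) of its longest transcript and the y axis the log2 value of replicate 3 minus the mean of replicates 1 and 2, for VIM-AS1 overexpression (left) and control (right). Genes under 45% GC lie mostly above 0 and those of highest GC below 0 in both groups.

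A pair of limma fits on log2(value + 1) were therefore made over all 20927 genes, with Benjamini-Hochberg adjustment. Without a term for the third libraries 5 genes passed an adjusted p of 0.05 (0.0239% of those tested, 0.0143% higher and 0.00956% lower), and 0 of them were among the 38. Of the 38, 11 had an unadjusted p under 0.05 in that limma fit, where 13.6% of all genes did. Without the term the count of adjusted calls among the 38 was also 0 by edgeR and by limma-voom on recovered reads (0.0191% and 0.0191% of all genes called). It was 2 by DESeq2, CCNB1 and BIRC5, where 0.636% of all genes were called higher and 1.05% lower. With a term that separates the third libraries, 22 of the 38 were higher and 1 was lower, while 11.5% of all tested genes were called higher and 7.94% lower. Of the 11336 genes whose mean was 50 or more, the shares were 20.4% higher and 10% lower, against 57.9% and 2.63% of the mitosis genes. With the replicate number as a block the counts were 24 and 1, and 15.8% of all genes were called higher and 10.8% lower. Below, "rose" and "fell" mean an adjusted p under 0.05 in the limma fit with the term, and SE values are from it. The term was picked from these data, so its p-values may be too small.

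Most of the 38 genes were higher with VIM-AS1 overexpression. Summed over the 38 genes, normalized reads were 66812, 70388 and 66543 with VIM-AS1 and 45289, 51343 and 49087 without it, with no overlap. As CPM of the recovered reads the sums were 3660, 3612 and 4405 against 2648, 2630 and 3459. With mitochondrial genes left out of the total, control replicate 3, at 3924 CPM, lay above overexpression replicate 2, at 3878, so that the groups overlapped on that scale. The median log2 fold change of the 38 was 0.39, against -0.02 over all tested genes and 0.09 over those with a mean of at least 50. Replicates 1 and 2 gave a median of 0.37 and replicate 3 gave 0.40. Values were positive for 34 genes, and for 29 (76.3%) they were positive between all 3 same-numbered pairs of libraries, as for 26.8% of all tested genes. Groups did not overlap for 14 genes, all higher with VIM-AS1 (36.8%, against 9.5% of all genes and 13.8% of those whose mean was 50 or more). For 0 of the 38 was VIM-AS1 overexpression wholly below, as it was for 10.3% and 7.42% of those genes.

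**Figure D2:**
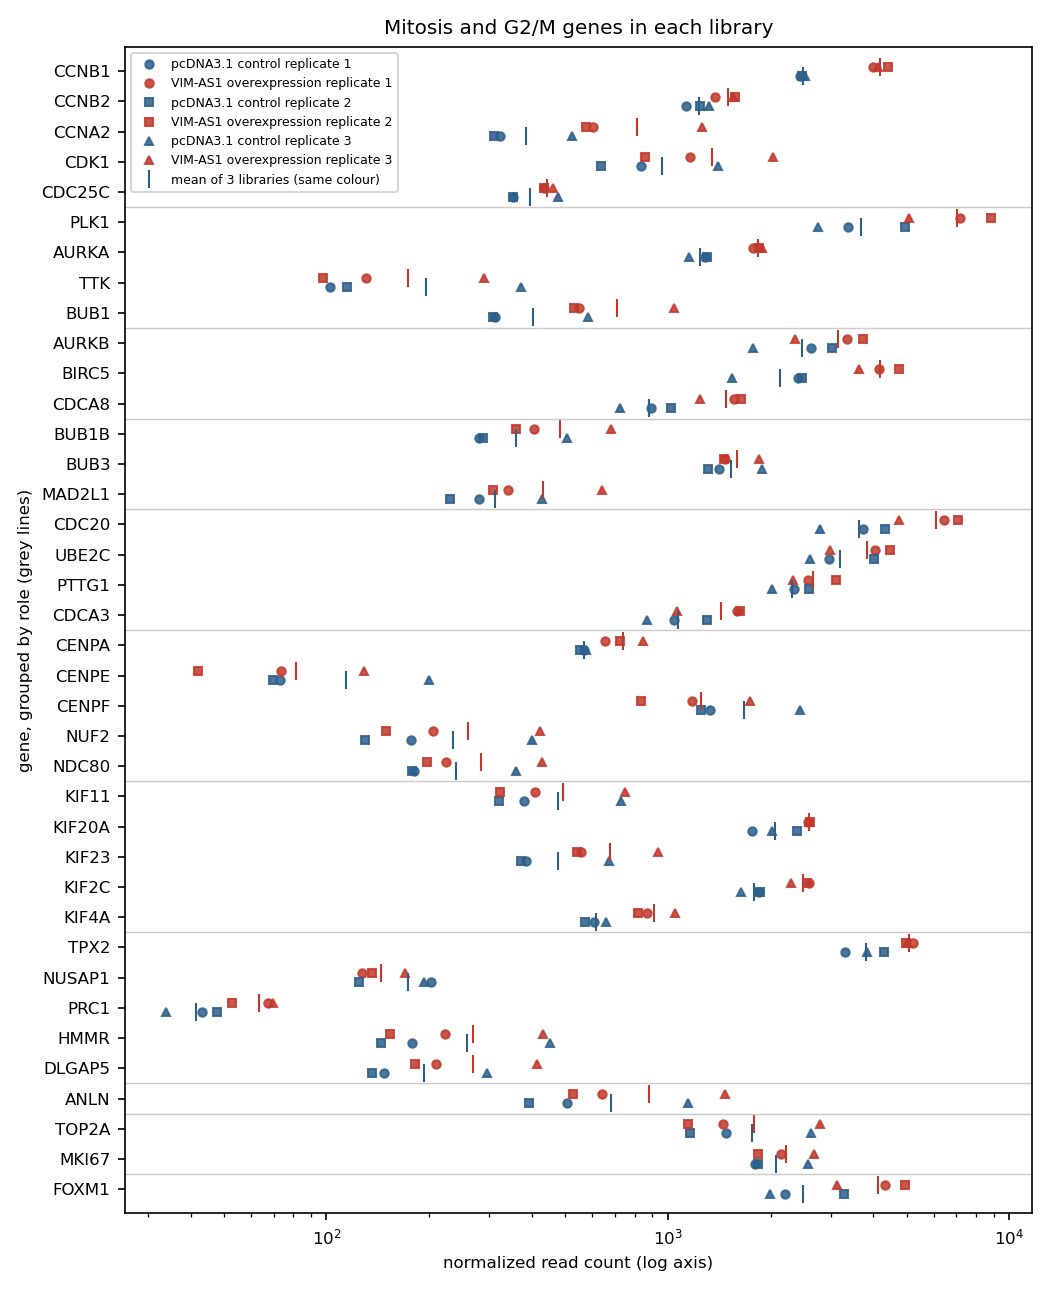
Normalized read count (log x axis) of each of the 38 genes in every library, grouped by role, with circles, squares and triangles for replicates 1, 2 and 3 and vertical ticks for means of 3 libraries. CCNB1, BIRC5, CDCA8 and CDC20 show no overlap between groups, whereas TOP2A and KIF11 spread by replicate and not by group.

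Of the cyclins and the kinase they activate, CCNB1, CCNA2 and CDK1 rose. CCNB1 (ENSG00000134057, chromosome 5, 69167010 to 69178245 on GRCh38), the cyclin that carries CDK1 through mitotic entry, was at 3986, 4404 and 4115 normalized reads with VIM-AS1 and at 2442, 2473 and 2524 in controls. Its groups lay far apart, with a log2 fold change of 0.75 ± 0.10 (SE; limma with the term, adjusted p = 4.38e-05, and 0.14 without it). CCNA2 (chromosome 4, 121816444 to 121823933), the cyclin of S phase and G2, stood at 604, 577 and 1258 against 323, 310 and 522. It was highest in the third library of both groups and did not overlap between them, and its log2 fold change of 1.02 ± 0.12 was the largest of the 38 (adjusted p = 9.15e-06 by limma with the term). CCNA2 differed by 1.27 in replicate 3 and by 0.90 in replicates 1 and 2. Of CCNA2's exon bases 9.08% overlap EXOSC9 on the opposite strand, and no source used here says that counting used strand.

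CDK1, the kinase of both cyclins, had 1160, 854 and 2030 normalized reads against 832, 638 and 1405. The groups overlapped because the third libraries lay high in both, and the log2 fold change was 0.48 ± 0.13. CCNB2, another B-type cyclin, was at 1370, 1570 and 1549 against 1132, 1240 and 1320, with groups that did not overlap. It missed the threshold with the term (0.28 ± 0.10, adjusted p = 0.063 by limma) and passed with the replicate block (adjusted p = 0.00802). CDC25C, the phosphatase that activates CDK1, did not pass in either fit, with 0.30 in replicates 1 and 2 and -0.05 in replicate 3. Of CDC25C's exon bases 8.78% overlap FAM53C on the opposite strand, which was at a mean of 1496 normalized reads.

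Of 4 mitotic kinases PLK1, AURKA and BUB1 rose. PLK1 (chromosome 16, 23677656 to 23690367), a kinase of centrosome maturation and mitotic entry, had 7156, 8823 and 5066 normalized reads against 3360, 4934 and 2758. Each group was lowest in replicate 3, overexpression replicate 3 lay just above control replicate 2, and the log2 fold change was 0.94 ± 0.13 (limma with the term, adjusted p = 6.55e-05). BUB1, a checkpoint kinase at kinetochores, was at 550, 532 and 1040 against 312, 308 and 584, which overlapped, with 0.81 ± 0.11. BUB1 differed by 0.80 in replicates 1 and 2 and by 0.83 in replicate 3.

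AURKA, which acts at centrosomes and the spindle, was at 1772, 1850 and 1884 against 1281, 1300 and 1156. Its groups did not overlap and it changed little between replicates (0.56 ± 0.10). TTK, the kinase known as MPS1 that starts checkpoint signalling, was at 131, 98.0 and 290 against 103, 115 and 370. Its values followed the replicate more than the group, with 0.06 in replicates 1 and 2 and -0.35 in replicate 3, and it did not pass.

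All 3 genes of the chromosomal passenger complex rose. This complex corrects faulty kinetochore attachments and later acts in cytokinesis. BIRC5, which encodes survivin (chromosome 17, 78214186 to 78225636), was at 4144, 4755 and 3635 normalized reads against 2399, 2464 and 1537. The lowest overexpression library was far above the highest control, with a log2 fold change of 0.99 ± 0.11 (limma adjusted p = 5.68e-06 with the term and 0.13 without it, the lowest of the 38 in the latter fit). CDCA8, which encodes borealin, had 1566, 1633 and 1244 against 892, 1019 and 723, again without overlap (0.76 ± 0.10). AURKB, the kinase of the complex, had 3337, 3728 and 2362 against 2633, 3016 and 1772, with overlapping groups and a smaller difference of 0.35 ± 0.10 (adjusted p = 0.0199 by limma with the term).

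Of the checkpoint proteins that are not active kinases, BUB1B and MAD2L1 rose by similar amounts. BUB1B, which encodes BUBR1, was at 407, 360 and 684 normalized reads against 279, 287 and 508 (log2 fold change 0.43 ± 0.12). MAD2L1, which encodes the MAD2 protein that holds CDC20 in check, was at 340, 308 and 641 against 280, 230 and 427 (0.43 ± 0.13). Both overlapped between groups and were highest in the third libraries. BUB3, the partner of BUB1 and BUBR1, was at 1468, 1459 and 1853 against 1408, 1315 and 1884, with 0.06 ± 0.10, and did not pass.

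Among partners and substrates of the APC/C, CDC20 and CDCA3 rose. CDC20 (chromosome 1, 43358955 to 43363203), the activator of the complex whose promoter is printed above, had 6446, 7071 and 4749 normalized reads against 3732, 4327 and 2798. The groups did not overlap, and the log2 fold change was 0.75 ± 0.11 (limma with the term, adjusted p = 6.55e-05), with 0.75 in replicates 1 and 2 and 0.76 in replicate 3. CDCA3, linked to mitotic entry through degradation of WEE1, was 0.41 ± 0.11 higher, with 1429 ± 317 against 1070 ± 218 (SD, n = 3).

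UBE2C, the ubiquitin-conjugating enzyme of the APC/C, was at 4034, 4462 and 2974 against 2968, 4007 and 2602. Its groups overlapped, and it missed the threshold with the term (0.26 ± 0.12, limma adjusted p = 0.12) but passed with the replicate block (adjusted p = 0.0137). PTTG1, which encodes securin, passed in neither fit (0.20 ± 0.11, limma adjusted p = 0.21 with the term and 0.0516 with the block), and its paralog PTTG2 and pseudogene PTTG3P are so alike that reads could be shared.

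Centromere and kinetochore genes differed from 1 another in direction. CENPA, the histone H3 variant of centromeres, was at 653, 725 and 843 normalized reads against 570, 553 and 577. Its groups did not overlap and it rose by 0.38 ± 0.11. Of CENPA's exon bases 6.96% overlap SLC35F6 on the same strand, which was at a mean of 1193 normalized reads. CENPF (chromosome 1, 214603195 to 214664588), a large protein of the outer kinetochore, was the 1 gene of the 38 that fell, at 1173, 832 and 1740 against 1332, 1252 and 2441. Each overexpression library was below the control of the same number, although the groups overlapped, and the log2 fold change was -0.42 ± 0.12 (limma adjusted p = 0.0165 with the term and 0.62 without it). The CENPF call was lost when VIM-AS1 replicate 2 was left out. It was also lost when either replicate 3 library was left out, a fit that compares replicates 1 and 2 only.

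CENPE, a kinesin motor of kinetochores, had the lowest fold change of the 38, at -0.44 ± 0.22 with 73.7, 42.1 and 128.9 normalized reads against 72.9, 69.6 and 199.8. It did not pass in limma with the term (adjusted p = 0.18). NDC80 and NUF2, partners in the microtubule-binding complex of the outer kinetochore, did not pass either. NDC80 was at 223, 197 and 429 against 180, 178 and 360 (0.23 ± 0.13), and NUF2 at 259.3 ± 144 against 235.2 ± 144 (SD, n = 3; 0.17 ± 0.16).

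Of 5 kinesins 4 rose, all by 0.35 to 0.56 log2 units. KIF4A, a chromokinesin, was at 870, 816 and 1050 normalized reads against 609, 572 and 660, and did not overlap between groups (0.56 ± 0.11). KIF2C, the microtubule depolymerase MCAK, was at 2598, 2552 and 2293 against 1847, 1863 and 1635, again without overlap (0.48 ± 0.10). The cytokinesis motors KIF23 (0.52 ± 0.11) and KIF20A (0.35 ± 0.11) also rose, KIF20A with 2594 ± 19.1 against 2058 ± 317 (SD, n = 3). The KIF20A call (limma with the term, adjusted p = 0.0371) was lost when any library but control replicate 2 was left out. KIF11, the motor that separates spindle poles, was at 408, 322 and 748 against 379, 320 and 729, and the library of each number was nearly the same in both groups (0.05 ± 0.13).

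Among spindle assembly and midzone genes TPX2 and DLGAP5 rose. TPX2, the activator of Aurora A on the spindle, was at 5211, 4988 and 5010 normalized reads against 3302, 4300 and 3822, with no overlap (0.42 ± 0.11). DLGAP5, a spindle protein also called HURP, was at 210, 181 and 414 against 148, 136 and 296 (0.47 ± 0.14). HMMR, a microtubule-associated protein, was at 222, 154 and 431 against 177, 144 and 450 and did not pass (0.12 ± 0.16). PRC1, which bundles midzone microtubules, stood at 67.4, 52.9 and 69.6 against 43.2, 47.6 and 34.0. PRC1 groups did not overlap and its value was 0.60 ± 0.25, but it missed the threshold (limma adjusted p = 0.11). Of PRC1's exon bases 57.6% lie in exons of AC068831.7 on the same strand, and of those of NUSAP1 62.2% lie in exons of AC087721.2, so reads of PRC1 and NUSAP1 may be split or dropped in counting. NUSAP1, a spindle microtubule-binding protein, was at -0.24 ± 0.18 and did not pass.

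ANLN, which encodes the contractile ring protein anillin, rose by 0.37 ± 0.12. Its values of 642, 526 and 1473 normalized reads against 507, 392.2 and 1147 overlapped, with replicate 3 of each group above the other 4 libraries. The common proliferation marker MKI67, which coats mitotic chromosomes, was at 2141, 1830 and 2671 against 1802, 1837 and 2574, and did not pass (0.10 ± 0.10). TOP2A, the topoisomerase that untangles chromosomes, was at 1793 ± 869 against 1758 ± 773 (SD, n = 3) and did not pass (0.01 ± 0.12). FOXM1 (chromosome 12, 2857681 to 2877155), the transcription factor of late cell cycle genes, rose from 2208, 3275 and 1990 to 4335, 4938 and 3125. Overexpression replicate 3 was below control replicate 2, and the log2 fold change was 0.74 ± 0.13 (limma with the term, adjusted p = 0.000393). Of FOXM1's exon bases 15.9% overlap ITFG2 on the opposite strand, which was at a mean of 162.6 normalized reads.

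**Figure D3:**
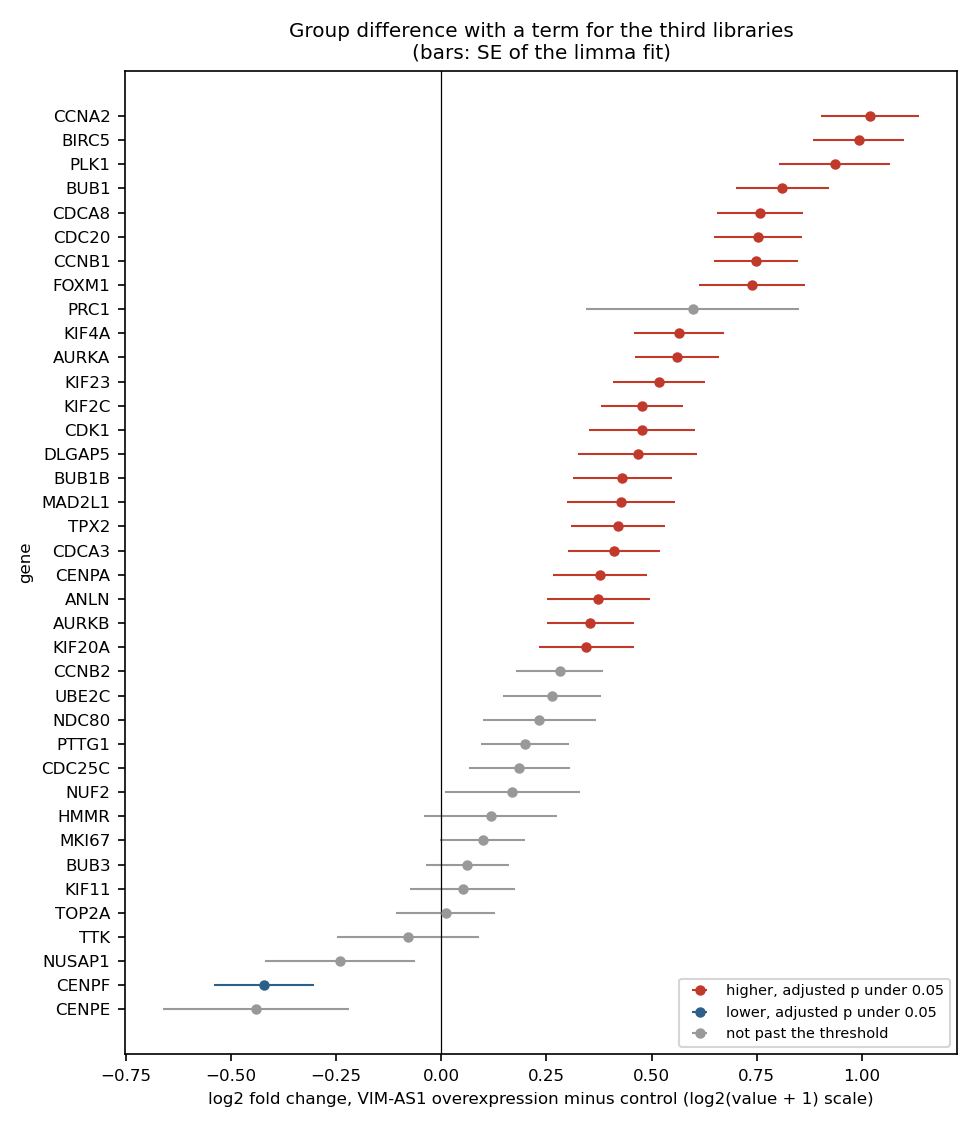
Log2 fold change (VIM-AS1 overexpression minus control, x axis) of each of the 38 genes with bars for the SE of the limma fit with a term for the third libraries. CCNA2, BIRC5 and PLK1 lie highest, 15 genes did not pass, and CENPF is the 1 gene that fell.

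The size of the difference varied among the 38 genes much alike in both sets of libraries. Fold changes of replicates 1 and 2 and those of replicate 3 had a Pearson r of 0.90 over the 38 genes (Spearman rho 0.90). The genes with higher GC content also had the larger fold changes (Pearson r 0.51, Spearman rho 0.47). Of the 18 genes at or above 45% GC 13 rose, with a median of 0.45, and of the 20 below it 9 rose and CENPF fell, with a median of 0.26. After each library's trends with GC content and transcript length were removed, these medians were 0.52 and 0.37 and the correlation with GC content was 0.47. The correction also recentred each library, and the median over all genes moved from -0.02 to 0.06. The part of this recentring in the larger medians and in the counts below was not tested. That correction with the term gave 26 genes higher and 1 lower, where 15.6% of all genes were called higher and 6.87% lower (3266 and 1436 genes, against 2403 and 1662 without the correction). Without the term it gave 16 higher and 0 lower, where 7.33% and 3.4% of all genes were called.

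**Figure D4:**
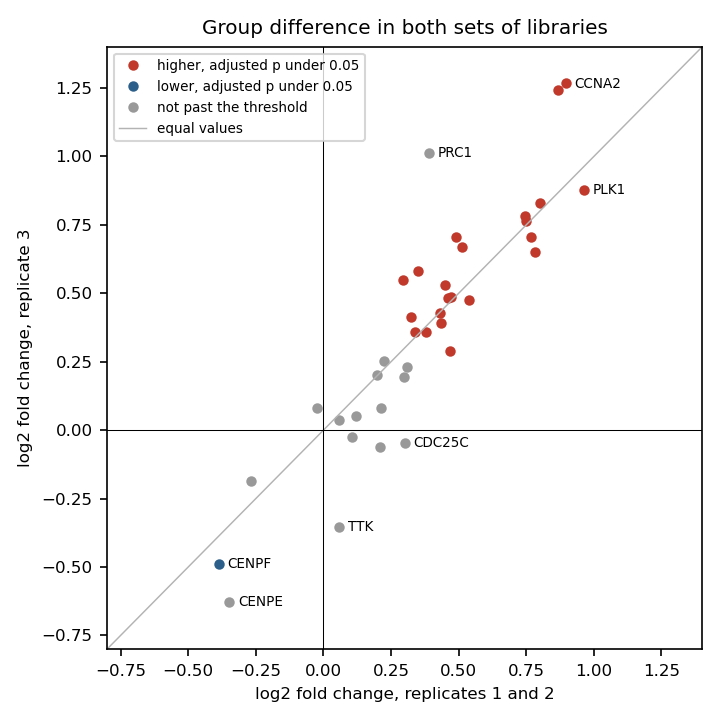
Log2 fold change of each of the 38 genes from replicates 1 and 2 (x axis) against that from replicate 3 (y axis), with the line of equal values. Genes that rose lie to the upper right, PRC1 and CCNA2 are larger in replicate 3, and TTK and CDC25C are among 5 genes that change sign.

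Leaving out either replicate 3 library removed most of the calls. Without VIM-AS1 replicate 3 or without control replicate 3, limma with the term called 5 genes higher and 0 lower. In both cases 18 of the 38 had an unadjusted p under 0.05. Of all genes 0.674% and 0.607% were called higher, against 11.5% with all 6 libraries. The term absorbs the replicate 3 library that remains, so both cases compare replicates 1 and 2 only and are 1 check. That check leaves 2 libraries against 2, and the part of having fewer libraries in the lost calls was not tested. CCNB1, CCNA2, BUB1, BIRC5 and CDCA8 were the 5 genes that kept the call whichever of the 6 libraries was left out. Without VIM-AS1 replicate 1 there were 14 higher and 1 lower, where 7.95% of all genes were higher. The median of the 38 was 0.37 without either replicate 3 library and 0.39 without VIM-AS1 replicate 1.

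Levels among the genes were compared per kilobase of annotated exon. In the controls UBE2C was the highest at 2482 ± 567 normalized reads per kb (SD, n = 3), before CDC20 at 1776 ± 378, PTTG1 at 1150 ± 141, AURKB at 1104 ± 284 and TPX2 at 1056 ± 139. The lowest levels were those of TTK (42.8 ± 33.0), CENPE (12.1 ± 7.86) and PRC1 (7.53 ± 1.26). Of the 37 neighbours in this order 34 overlapped in the ranges of their control libraries. Overlap of ranges ignores that both genes were measured in the same libraries, and whether adjacent ranks differ was not tested. With VIM-AS1, CDC20 (2988 ± 589) and UBE2C (2973 ± 596) were nearly level, CCNB1 moved from rank 6 to rank 3 (969.4 ± 16.2 to 1629 ± 83.7 per kb), and BUB1 from 66.5 ± 26.3 to 117.2 ± 47.8.

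Other genes of the same process, 134 in a list without the 38, were also mostly higher. Of them 45 rose (33.6%) and 5 fell with the term, where 11.5% and 7.94% of all tested genes were called (20.4% and 10% of those whose mean was 50 or more). Without the term 0 passed, and with the replicate block 60 were higher and 7 lower, where 15.8% and 10.8% of all genes were. Their median was 0.26, and the difference from the 38 was not tested. Of 23 other spindle genes 10 rose and 0 fell. TUBA1B and TUBA1C, alpha tubulins whose near-identical copies make their reads uncertain, rose by 1.21 ± 0.12 and 0.97 ± 0.14, FAM83D, which directs a kinase to the spindle, by 0.99 ± 0.10, and GTSE1, a microtubule-binding protein of G2, by 0.73 ± 0.10. FAM83D was at 1640 ± 89.0 normalized reads against 826.0 ± 65.9 (SD, n = 3), without overlap between groups.

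Among 13 G2/M regulators 7 rose and 0 fell. The largest value was that of BORA, the cofactor through which Aurora A activates PLK1 (1.004 ± 0.25). BORA was low, at 56.9, 58.8 and 119.7 normalized reads against 24.0, 24.4 and 80.6, with overlapping groups. Its difference was 1.22 in replicates 1 and 2 and 0.57 in replicate 3. Next came the phosphatase gene CDC25A (0.77 ± 0.12), the CDK-binding subunit CKS1B (0.67 ± 0.11) and cyclin F, CCNF (0.49 ± 0.11). Of 18 genes of the APC/C, its partners and inhibitors, with the separase gene listed among them, 6 rose and 0 fell. They included the scaffold subunit ANAPC1 (0.58 ± 0.12), ANAPC15 (0.54 ± 0.14), the separase gene ESPL1 (0.49 ± 0.11) and the chain-extending enzyme UBE2S (0.47 ± 0.10). Of 10 checkpoint and corona genes ZWINT (0.76 ± 0.10) and TRIP13 (0.45 ± 0.10) rose, and KNTC1, a subunit of the complex that brings dynein to kinetochores, fell (-0.50 ± 0.13).

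Of 21 inner centromere genes 6 rose and 0 fell, including CENPN (0.85 ± 0.11), which reads the CENPA nucleosome, INCENP (0.69 ± 0.10), the scaffold of the chromosomal passenger complex, CENPM (0.54 ± 0.12) and CENPO (0.53 ± 0.11). INCENP stood at 2074 ± 160 against 1288 ± 159 normalized reads (SD, n = 3), so INCENP of the passenger complex rose with BIRC5, CDCA8 and AURKB. Of 9 other outer kinetochore genes SPC25 (0.69 ± 0.17), a partner of NDC80, and PMF1 (0.36 ± 0.13) rose and DSN1 (-0.38 ± 0.12) fell.

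Of 8 condensin genes 4 rose and 0 fell, namely NCAPH (0.57 ± 0.11), SMC4 (0.53 ± 0.17), NCAPD2 (0.45 ± 0.12) and NCAPG2 (0.38 ± 0.11). Cohesin genes went both ways, with SMC1A (0.60 ± 0.10) and CDCA5, which encodes sororin (0.52 ± 0.10), higher and SMC3 (-0.54 ± 0.12) and STAG2 (-0.40 ± 0.12) lower, of 11. Of 8 genes listed under cytokinesis 4 rose and 0 fell. They were RACGAP1, the partner of KIF23 in centralspindlin (0.72 ± 0.10), CDCA2 (0.58 ± 0.14), SEPTIN9 (0.41 ± 0.11) and CIT (0.40 ± 0.12). CDCA2 was listed there without being a cytokinesis factor itself. Among 13 genes of transcriptional control MYBL2 (0.52 ± 0.13) and TFDP1 (0.32 ± 0.10) rose and LIN9, a subunit of the MuvB core, fell (-0.42 ± 0.14). MYBL2 was at 13105 ± 3772 against 9164 ± 2780 normalized reads (SD, n = 3), with overlapping groups. Of cohesin genes 18.2% rose and 18.2% fell, and of genes of transcriptional control 15.4% and 7.69%. For checkpoint and corona genes the shares were 20% and 10%, and for the other outer kinetochore genes 22.2% and 11.1%. In these roles the shares that rose were near or below the 20.4% of all genes whose mean was 50 or more, of which 10% fell.

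**Figure D5:**
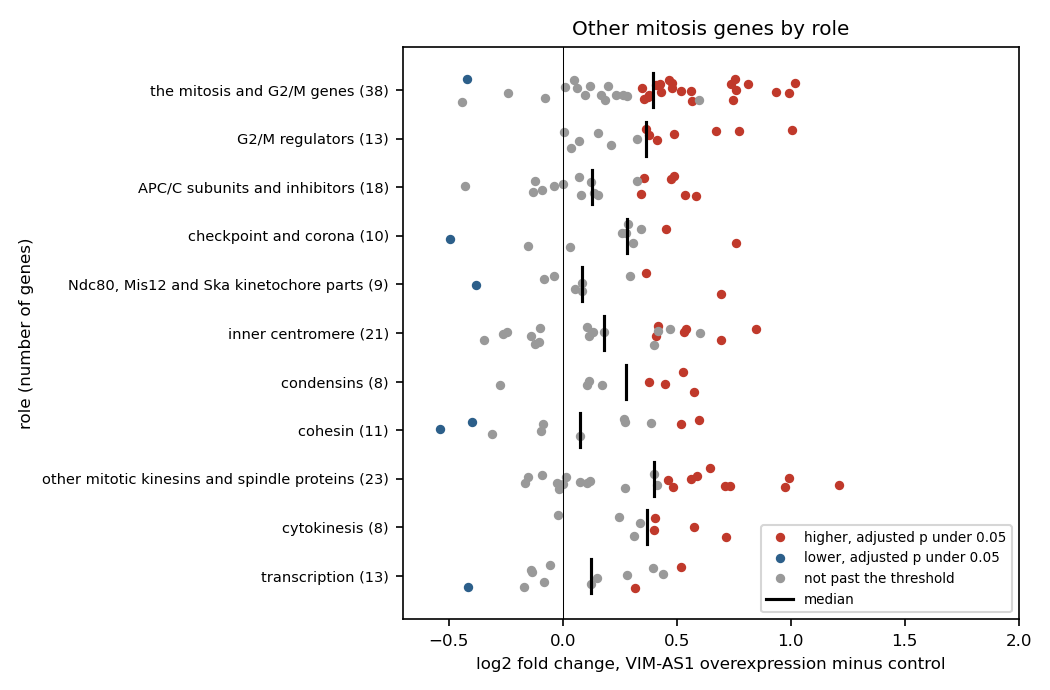
Log2 fold change (x axis) of the 38 mitosis and G2/M genes and of 134 other mitosis genes by role, with colour for the call in the limma fit with the term, black lines for medians and vertical scatter added for legibility. Medians are positive in every role, from 0.07 for cohesin to 0.40 for other spindle genes.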

How the data were processed

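The submitters' processing notes name fastp, HISAT2, featureCounts and hg38. Tool versions, the annotation and the strand setting are not given in the sources used here. Values deposited by the authors are a signal per gene, namely counts divided by 1 factor per library. In each library 100% of values were whole multiples of 1 step within 0.01 read, so reads were recovered. 

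Values were tested with limma (3.58.1, R 4.3.3) on log2(value + 1), with an intensity trend, for genes with a mean of at least 1, two-sided, with Benjamini-Hochberg adjustment over all tested genes, once without and once with a term for the third libraries. Fold changes on this scale understate those of low genes. Same-numbered libraries deviated together (r 0.32, 0.72 and 0.84 over 13175 genes whose mean was 20 or more), so the numbers were taken as pairs on the data alone. VIM-AS1 replicate 1 correlated more with control replicate 2 (0.42) than with its own number. Control replicate 1 likewise correlated slightly more with VIM-AS1 replicate 2 (0.328) than with its own number (0.319). The pairing of replicates 1 and 2 is thus uncertain. Results with the replicate block and between same-numbered pairs depend on it. Alternatives were edgeR (4.0.16), DESeq2 (1.42.0) and limma-voom on recovered reads, TMM and library size scaling, no filter, a minimum of 10 reads per library in a group, pseudocount 0.1, GC and length correction (5 degrees of freedom each), a minimum log2 fold change of 1 and each library left out. A gene at 0 reads could hold up to 3 reads, or 0.151 to 0.203 CPM, and this covers counting error only.

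Members and lists were chosen with earlier results of these data known. All 38 genes and VIM-AS1 were named, with up to 4 called genes of each role in the wider list, and library values were given for the largest calls, any fall and 1 abundant gene not called in each role. Values of some further members were added.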

Additional observations from a re-analysis of the deposited data

How the results depend on the processing

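Without a term for the third libraries, the 0 genes higher of 38 became 2 with DESeq2 and 16 with GC and length correction, and the 0 lower stayed at 0 in both. The replicate block also separates the third libraries, so its counts are given beside the fit with the term. With the term, the 22 higher and 1 lower became 24 and 1 with the replicate block, which changed the calls of CCNB2 and UBE2C and no other of the 38, and 1 and 0 when the log2 fold change had to reach 1 in size. Leaving out single libraries gave 5 to 21 higher and 0 to 1 lower with the term and 0 without it. With edgeR and the replicate block, an alternative chosen after seeing the data, 2 were lower (CENPE and CENPF). The causes of these differences were not tested. The median stayed from 0.27 to 0.51 over all alternatives run. Signs changed for genes that did not pass. TTK was at 0.059 with replicates 1 and 2 alone, and leaving out single libraries gave it -0.2356 to 0.059. KIF11 was at -0.0095 with library size scaling and from -0.0477 to 0.1455 with single libraries left out, and HMMR from -0.0592 to 0.2428. TOP2A was at -0.0502 with library size scaling, -0.0003 with edgeR and with limma-voom, -0.0244 with replicates 1 and 2 alone and from -0.0795 to 0.1199 with single libraries left out. TMM scaling changed no call among the 38. Library size scaling with the term left 15 higher and 1 lower, with CDK1, BUB1B, MAD2L1, CENPA, KIF20A, DLGAP5 and ANLN no longer past the threshold. Levels of 34.0 to 202.4 normalized reads in PRC1, CENPE and NUSAP1 limit the precision of their fold changes.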
